A study of Homo sapiens with 60 samples.

Results

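Yijung-tang is a herbal formula of East Asian medicine whose usual ingredients are ginseng, Atractylodes rhizome, dried ginger and licorice. Here its high dose was set against its low dose: of the 60 RNA-seq libraries analysed, 4 are these, 2 at 500 µg/mL and 2 at 20 µg/mL. They were chosen by their labels alone, as the high and low doses of this extract within a single series of sample titles, and no measured value entered that choice. The cells were HepG2, an established human hepatocellular carcinoma line that keeps much of the gene expression of a hepatocyte, with no genotype or agent other than the extract or its vehicle. They were exposed for 24 h to a 70% ethanol extract of the formula. The high dose of an extract was 500 µg/mL, or the dose inhibiting growth by 20% where that was lower, and the other doses were 1/5 and 1/25 of it.

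The groups set beside each other were Yijung-tang at 500 µg/mL (2 libraries), at 100 µg/mL (2 libraries) and at 20 µg/mL (2 libraries), and DMSO vehicle (3 libraries) from another series of titles. Single-herb extracts at the same doses, with 3 libraries per dose, gave the comparison between extracts: Cimicifugae Rhizoma, Citri Unshius Pericarpium and Aconiti Lateralis Radix Preparata. The labels state 0.1% DMSO and the study text 2%, and which applied was not settled here. The labels do not say that libraries of a group came from separate cultures, so each p-value sets an effect against the scatter of the libraries as prepared, part or all of which could be technical. The submitters also left out samples with little RNA, which limits how far the remaining libraries stand for every treated culture.

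Many plant phenolics reach gene expression through 2 sensors that liver cells are known for. The aryl hydrocarbon receptor (AhR) binds flat aromatic molecules and switches on the cytochrome P450 genes of the CYP1 family, while NRF2, the product of NFE2L2, is freed from its inhibitor KEAP1 by electrophiles and switches on genes for glutathione, thioredoxin and NADPH supply. Hepatocytes also make most plasma proteins, synthesise cholesterol under the control of SREBP2, and hold zinc and copper in metallothioneins.

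The promoters of CYP1A1, GCLM and TXNRD1 are printed because these genes were among those that rose with dose and because letters resembling the AhR and NRF2 recognition sites lie in them. Each run holds 250 bases before and 50 bases after the start site that RefSeq gives on GRCh38.p14, written 5′ to 3′ on the strand of the gene. CYP1A1 is read on the minus strand at chr15:74725479-74725778, GCLM on the minus strand at chr1:93909381-93909680 and TXNRD1 on the plus strand at chr12:104215529-104215828. Capitals mark matches to GCGTG, the core of the AhR site, which reads CACGC where it lies on the opposite strand, and to TGACNNNGC, the core of the antioxidant response element bound by NRF2.
CYP1A1: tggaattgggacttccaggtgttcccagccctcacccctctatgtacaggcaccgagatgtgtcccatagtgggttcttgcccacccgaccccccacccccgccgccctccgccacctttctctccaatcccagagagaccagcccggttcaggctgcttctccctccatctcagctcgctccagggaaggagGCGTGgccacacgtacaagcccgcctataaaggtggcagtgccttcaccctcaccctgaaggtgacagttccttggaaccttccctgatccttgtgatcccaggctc
GCLM: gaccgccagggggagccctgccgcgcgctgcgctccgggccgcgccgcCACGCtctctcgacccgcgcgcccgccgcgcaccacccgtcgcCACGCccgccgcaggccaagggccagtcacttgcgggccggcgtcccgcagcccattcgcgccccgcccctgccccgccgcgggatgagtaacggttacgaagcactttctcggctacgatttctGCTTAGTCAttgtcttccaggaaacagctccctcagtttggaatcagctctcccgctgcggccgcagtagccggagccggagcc
TXNRD1: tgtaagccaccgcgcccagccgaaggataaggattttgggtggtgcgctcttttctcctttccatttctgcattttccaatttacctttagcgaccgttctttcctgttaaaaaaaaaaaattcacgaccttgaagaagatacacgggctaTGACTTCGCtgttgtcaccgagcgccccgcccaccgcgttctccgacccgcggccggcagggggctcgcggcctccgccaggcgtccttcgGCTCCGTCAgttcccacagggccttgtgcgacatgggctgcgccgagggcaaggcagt
The AhR core stands once in the CYP1A1 promoter and at 2 places, reversed, in that of GCLM. The antioxidant core is found once in GCLM and at 2 places in TXNRD1. In all, 9919 of 27305 RefSeq promoters of this length (36.3%) hold GCGTG on either strand and 3702 (13.6%) hold the antioxidant core. Of the NRF2 list's members that rose at the high dose and had a promoter in the table, 8 of 16 held GCGTG and 4 of 16 (25.0%) the antioxidant core, and of the AhR list's risen members 3 of 4 (75.0%) held GCGTG. The shares among promoters of genes tested were 49.8% for GCGTG and 15.2% for the antioxidant core. A match is a string of letters and not a site shown to be bound, and although the 2 motifs can overlap, none of the matches printed here do.

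Each library held 23812311 to 27356384 estimated gene counts over the 3 Yijung-tang doses and 20991532 to 24070592 over the vehicle libraries. Levels below are CPM, a gene's share of its library's counts times 1e+06, with the library totals scaled by TMM factors, and are given for replicate 1 and then replicate 2. A gene is called when edgeR's quasi-likelihood test, with Benjamini-Hochberg adjustment over the 16675 genes tested, gave an adjusted p under 0.05. The hepatocyte markers examined were detected in all 6 Yijung-tang libraries, at levels that differed widely. They ran from TTR, between 34.57 and 54.55 CPM, to APOB, between 17975 and 22005 CPM, with HNF4A between 366 and 412 CPM. No reference sample of hepatocytes was set beside them. Of the marker lists of other cell types, some members were at 0 in all 6 of those libraries and the rest were not. Those at 0 were 3 of 7 for endothelium (KDR, TEK and CLEC4G) and 1 of 7 for stellate cells and fibroblasts (DCN). They were 4 of 7 for white blood cells (PTPRC, MARCO, CD3E and NKG7) and 2 of 6 for bile duct (CFTR and AQP1). The bile duct list summed to 463 to 477 CPM at the high dose, and sums of other lists are given further below. Log2 deviations from the mean of the 6 Yijung-tang libraries followed GC content with a Spearman correlation of -0.21 and 0.26 in the 2 high-dose libraries, -0.22 and 0.00 in the 2 low-dose libraries and -0.52 to -0.41 in the vehicle libraries, a description over 10611 genes.

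The high dose changed 1215 of 16675 genes (7.29%) relative to the low dose, 663 higher (3.98%) and 552 lower (3.31%). Most of these changes were small: 264 were at least 1.5-fold and 89 at least 2-fold, of which 45 were higher and 44 lower. The median log2 fold change over all genes tested was 0.00. Leaving out any 1 of the 4 libraries left 586 to 670 called genes, and 389 of the 1215 calls, with 32 of the 89 at least 2-fold, were kept in each of those 4 fits. Without 1 low-dose library of another extract, Bupleuri Radix, that stands apart from its group and enters the shared estimate of spread, 2023 genes were called. Called genes lay on both sides of zero across the range of levels, as the plot of all genes tested shows.

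**Figure D1:**
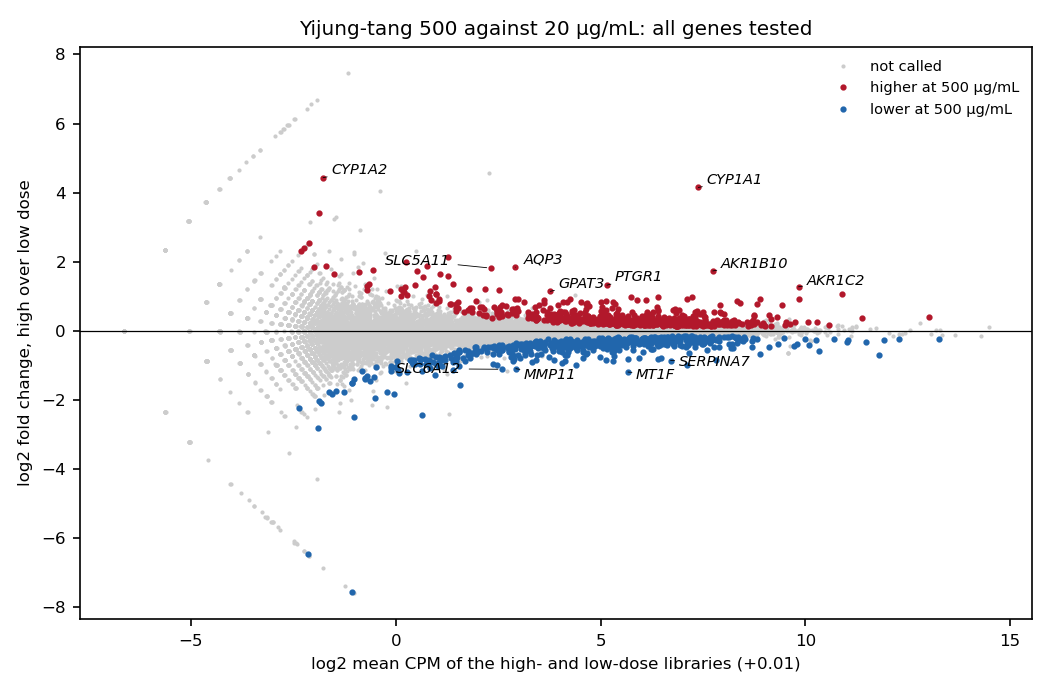
Log2 fold change of the high over the low dose of Yijung-tang (vertical axis) against log2 mean CPM of those 4 libraries (horizontal axis), 1 point per gene for 16675 genes. Red points are the 663 genes called higher, blue points the 552 called lower and grey points the rest; CYP1A1 stands alone among well-measured genes at 4.15.

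CYP1A1, the AhR-induced cytochrome P450 that oxidises polycyclic aromatic compounds, showed the largest rise of any called gene at 5 CPM or more. The gene (ENSG00000140465) lies at chr15:74719542-74725610 on the minus strand of GRCh38. Its level was 12.6, 13.7 and 12.4 CPM in the vehicle libraries, 21.6 and 14.1 CPM at 20 µg/mL, 41.3 and 40.6 CPM at 100 µg/mL and 319 and 313 CPM at 500 µg/mL. The groups did not overlap, and each dose stood above the one below it, although the low dose was not called against vehicle (adjusted p = 0.11). The means were 316 ± 4.22 CPM at the high dose and 17.9 ± 5.32 CPM at the low dose (SD, n = 2 each), a 17.7-fold difference with a log2 fold change of 4.15 ± 0.15 (SE) and an edgeR adjusted p of 1.1e-22. It also rose at the medium dose, by 1.20 ± 0.15 on the log2 scale over the low dose (edgeR adjusted p = 2.5e-05). In a fit of the 6 Yijung-tang libraries alone, the adjusted p of that medium-dose rise was 0.21.

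Of the 8 genes in the AhR list, 5 rose at the high dose and none fell, beside 3.98% of all genes called higher. The list's median log2 fold change was 1.02, beside 0.00 over all genes. Only 3 of the 8 genes reached 5 CPM, of which 2 were called higher, and the median of those 3 was 0.92. CYP1A2, the P450 that clears caffeine and lies beside CYP1A1 on chromosome 15, was counted 27 times in the high-dose libraries and 1 time in the low-dose libraries, a ratio of 26.6 with an exact 95% counting interval of 4.38 to 1088. ALDH3A1, an aldehyde dehydrogenase, had 2.69 and 2.63 CPM at the high dose, against 0.46 and 0.959 CPM at the low dose, with the high-dose libraries above both of the others (1.89 ± 0.28 as log2 fold change, edgeR adjusted p = 4e-06). AHRR, the repressor that AhR induces against itself, had 1.55 and 1.59 CPM at the high dose, against 0.753 and 0.679 CPM at the low dose, but its call was lost without low-dose replicate 2 (adjusted p = 0.077). NQO1, a quinone reductase that answers to AhR and NRF2, is described with the NRF2 genes. TIPARP, another early AhR target, stood at 22.7 and 24.7 CPM at the high dose and 22.7 and 22.7 CPM at the low dose and was not called, nor were CYP1B1 and UGT1A6, which were under 0.2 CPM in all 4 libraries.

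**Figure D2:**
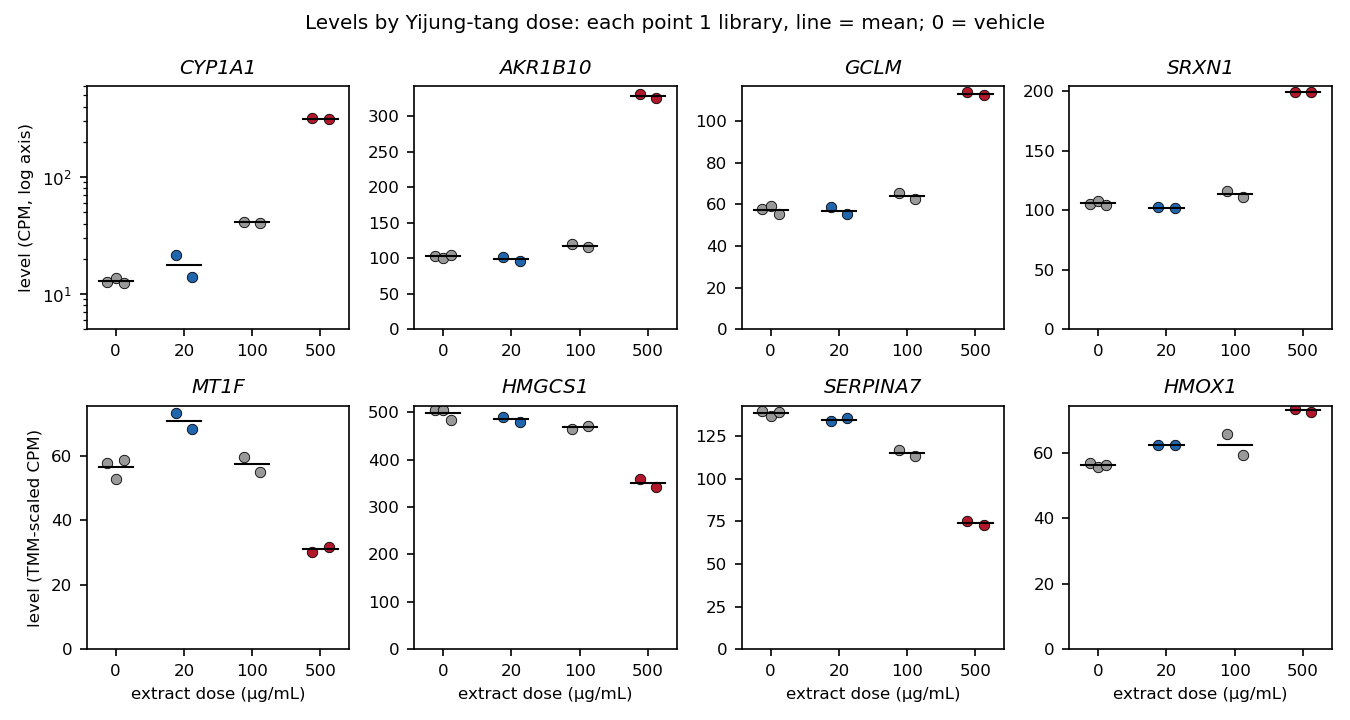
Levels in TMM-scaled CPM (vertical axes; log axis for CYP1A1) of 8 genes by dose in µg/mL (horizontal axes; 0 is vehicle), each point 1 library and each line the group mean, with the low dose in blue and the high dose in red. The CYP1A1 mean was higher at each dose, whereas AKR1B10, GCLM and SRXN1 stood nearer their vehicle level than their high-dose level up to 100 µg/mL. At 100 µg/mL AKR1B10 was called above vehicle (0.20 ± 0.06 on the log2 scale, edgeR adjusted p = 0.049). All MT1F points at 20 µg/mL lay above vehicle.

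The antioxidant genes under NRF2 rose almost as a block. Of 23 list members tested, 22 were higher at the high dose and none lower, beside 3.98% of all genes called higher, and the median log2 fold change was 0.59. ME1 was too low to be tested. Leaving out 1 library at a time left 17 to 19 of the 22 called, and TXN, the thioredoxin itself (0.55 on the log2 scale), and HMOX1 lost the call in each of the 4 fits, with adjusted p up to 0.14 for TXN.

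AKR1B10, AKR1C2 and AKR1C1, aldo-keto reductases that reduce reactive carbonyls, had the highest log2 fold changes of the list. AKR1B10 (chr7:134527592-134541408, plus strand) had 103, 101 and 104 CPM with vehicle, 101 and 96.7 CPM at 20 µg/mL, 121 and 115 CPM at 100 µg/mL and 331 and 325 CPM at 500 µg/mL. The high-dose libraries stood 3.32-fold above the low-dose libraries (1.73 ± 0.07 as log2 fold change, edgeR adjusted p = 8.4e-23). AKR1C2 had 1294 and 1283 CPM at the high dose, against 554 and 512 CPM at the low dose (1.27 ± 0.08), and AKR1C1 had 2572 and 2534 CPM at the high dose, against 1245 and 1197 CPM at the low dose (1.06 ± 0.08), both log2 fold changes well past their SE. AKR1C3, another copy of that family with a smaller change, had 197 and 186 CPM at the high dose, against 129 and 136 CPM at the low dose (0.53 ± 0.14), and its call was lost in 3 of the 4 fits that left out a library, all but the one without high-dose replicate 2 (adjusted p up to 0.12). The AKR1C genes are near-identical in sequence, so how the estimated counts divide among them is uncertain.

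Both subunits of the first enzyme of glutathione synthesis rose. GCLM, the modifier subunit of glutamate-cysteine ligase (chr1:93885205-93909456, minus strand), whose promoter is printed above, had 114 and 112 CPM at the high dose, against 58.5 and 55.4 CPM at the low dose, 1.98-fold apart with no overlap (0.99 ± 0.06 as log2 fold change, edgeR adjusted p = 2.7e-16). Its catalytic partner GCLC had 142 and 147 CPM at the high dose, against 99.9 and 92.1 CPM at the low dose, a smaller change of 0.59 ± 0.06 on the log2 scale. SLC7A11, the cystine importer that feeds both, had 56.9, 56.9 and 53.6 CPM with vehicle, 59.8 and 59.3 CPM at 20 µg/mL, 45.9 and 44.3 CPM at 100 µg/mL and 87.6 and 80.4 CPM at 500 µg/mL, so that the medium dose lay lowest of the 4 groups. Its high-over-low log2 fold change was 0.50 ± 0.10 (edgeR adjusted p = 0.00072). GSR, which returns oxidised glutathione to its reduced form, had 280.2 and 289.5 CPM at the high dose, against 199 and 193 CPM at the low dose (0.54 ± 0.04 on the log2 scale).

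The thioredoxin branch moved with it. SRXN1, sulfiredoxin, which repairs over-oxidised peroxiredoxins, had 199.6 and 199 CPM at the high dose, against 103 and 102 CPM at the low dose, 1.95-fold apart (0.96 ± 0.05 as log2 fold change, edgeR adjusted p = 4.1e-19). TXNRD1, thioredoxin reductase (chr12:104215779-104350305, plus strand), had 422 and 409 CPM at the high dose, against 232 and 228 CPM at the low dose (0.85 ± 0.05 as log2 fold change, edgeR adjusted p = 4.6e-16). In both genes the replicates of a dose differed by far less than the doses did. NQO1 had 1211 and 1214 CPM at the high dose, against 646 and 634 CPM at the low dose (0.92 ± 0.08 on the log2 scale). The NADPH-generating sugar enzymes TALDO1 and TKT rose by 0.49 and 0.47 on the log2 scale, and PGD by 0.24.

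Transporters and binding proteins of the list gave the same direction. ABCC2, which exports glutathione conjugates into bile, had 634 and 597 CPM at the high dose, against 333 and 322 CPM at the low dose (0.91 ± 0.11 on the log2 scale), and ABCC3, its basolateral relative, rose by 0.59. The ferritin subunits were the most abundant members: FTL had 9044 and 9659.7 CPM at the high dose, against 7189.9 and 7098 CPM at the low dose, and FTH1 had 2969 and 2997 CPM at the high dose, against 2375 and 2278 CPM at the low dose, log2 fold changes of 0.39 ± 0.09 and 0.36 ± 0.09. Both ferritin calls were lost on dropping replicate 2 of either dose, with adjusted p up to 0.073 for FTL and 0.099 for FTH1. SQSTM1, the autophagy receptor p62, which also binds KEAP1, stood outside the list and had 420.0 and 437 CPM at the high dose, against 243 and 249 CPM at the low dose (0.80 ± 0.06 as log2 fold change, edgeR adjusted p = 1.4e-13).

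HMOX1, heme oxygenase, is the best known of the stress-induced members and moved least of those called. It had 56.7, 55.6 and 56.2 CPM with vehicle, 62.3 and 62.2 CPM at 20 µg/mL, 65.6 and 59.2 CPM at 100 µg/mL and 73.4 and 72.5 CPM at 500 µg/mL. The high-dose libraries lay above all others, by 0.23 ± 0.07 over the low dose in log2 units (edgeR adjusted p = 0.02). That call was lost on leaving out any 1 of the 4 libraries (adjusted p 0.094 to 0.15) and without the filter on low counts (0.098).

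At the medium dose none of the 23 NRF2 genes was called against the low dose, although 22 of 23 estimates lay above zero, with a median of 0.12 on the log2 scale. Against the medium dose, the high dose raised 21 of the 23, beside 2.27% of all genes. Only 3 genes in all were called between medium and low dose (0.018%; 710 genes had an unadjusted p under 0.05), and the other two, INHBE and C1orf116, were named here after their values were seen. INHBE, a hepatic activin subunit, had 10.3 and 10.8 CPM at 100 µg/mL and 14.8 and 13.6 CPM at 20 µg/mL (edgeR adjusted p = 0.038), and C1orf116 had 1.6 and 2.26 CPM at 100 µg/mL and 4.27 and 3.48 CPM at 20 µg/mL (adjusted p = 0.02). Neither was called without replicate 1 of the medium or of the low dose, and 1 of them was called in each of the other leave-one-out fits. Between high and medium dose 650 genes were called (3.9%), 378 higher and 272 lower.

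Genes outside the AhR and NRF2 lists used here were also among the 10 largest rises. AQP3, a channel for water and glycerol, had 12.9 and 10.7 CPM at the high dose, against 3.26 and 3.32 CPM at the low dose (1.84 ± 0.15 as log2 fold change, edgeR adjusted p = 3.2e-12). SLC5A11, a sodium-coupled inositol carrier, had 8.1 and 7.44 CPM at the high dose, against 2.05 and 2.36 CPM at the low dose (1.81 ± 0.15). In both, the medium dose lay between the low and the high dose, at 5.24 and 5.24 CPM for AQP3 and 2.87 and 3.24 CPM for SLC5A11. PTGR1, which inactivates prostaglandins and leukotrienes, had 50.9 and 50.7 CPM at the high dose, against 19.5 and 21.1 CPM at the low dose (1.32 ± 0.08). GPAT3, which starts glycerolipid synthesis, had 20.1 and 17.5 CPM at the high dose, against 7.95 and 9.07 CPM at the low dose (1.14 ± 0.10). RPS10-NUDT3, a read-through of neighbouring genes, had 7 and 5.57 CPM at the high dose, against 2.39 and 3 CPM at the low dose, but vehicle libraries stood above both at 9.31, 8.12 and 8.22 CPM. Its high-over-low call (edgeR adjusted p = 0.026) was lost in all 4 fits that left out a library (up to 0.22), and it shares reads with the genes it spans.

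A few genes of fatty acid oxidation rose. Of 17 genes of the PPAR-alpha and fatty acid oxidation list, 4 were higher and 1 lower, beside 3.98% and 3.31% of all genes. The list's median was 0.01 on the log2 scale, and with a library left out 3 to 4 were higher and 0 lower. CPT1A, the carnitine transferase that admits fatty acids into mitochondria, had 39.5, 38.5 and 40.5 CPM with vehicle, 36.7 and 35.7 CPM at 20 µg/mL, 42.3 and 41.3 CPM at 100 µg/mL and 74.7 and 67.7 CPM at 500 µg/mL. It was 1.97-fold higher at the high than at the low dose (0.98 ± 0.07 as log2 fold change, edgeR adjusted p = 8.2e-14). ACADVL, the first dehydrogenase of the long-chain cycle, had 132 and 139 CPM at the high dose, against 90.2 and 99.1 CPM at the low dose (0.52 ± 0.06). CREB3L3, a hepatic transcription factor of fasting, had 13.7 and 14.6 CPM at the high dose, against 8.79 and 7.99 CPM at the low dose (0.76 ± 0.14).

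Conjugation and export of foreign compounds changed in a few genes. MGST1, a membrane glutathione transferase, had 303 and 303 CPM at the high dose, against 180.4 and 179.6 CPM at the low dose (0.75 ± 0.09 on the log2 scale), the replicates of each dose nearly identical. EPHX1, microsomal epoxide hydrolase, had 182 and 194 CPM at the high dose, against 133 and 128 CPM at the low dose (0.53 ± 0.06), and SULT1A1, a phenol sulfotransferase, rose by 0.59 ± 0.08. UGT2B10, a glucuronosyltransferase, was lower at 49.1 and 44.6 CPM at the high dose, against 59.1 and 68.7 CPM at the low dose (-0.45 ± 0.07). These 4 were the only called members of 16 in the phase II list, whose median was -0.01. Of 9 genes of the PXR and CAR list, 3 were higher and none lower, beside 3.98% of all genes called higher. CYP3A5 and ALAS1 lost the call without replicate 1 of either dose (adjusted p up to 0.17 for CYP3A5 and 0.07 for ALAS1), which left ABCB1, the drug exporter P-glycoprotein, at 89.6 and 83.4 CPM at the high dose, against 67.3 and 61.9 CPM at the low dose (0.42 ± 0.08).

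The 18 genes of ribosome biogenesis all had positive estimates, beside 8439 of all 16675 genes, and in each of them both high-dose libraries lay above both low-dose libraries, beside 27.4% of all genes. Of these, 10 were called higher, beside 3.98% of all genes, with a median log2 fold change of 0.22. MYC, the transcription factor that drives this program, had 207 and 213 CPM at the high dose, against 166 and 168 CPM at the low dose (0.32 ± 0.06 as log2 fold change, edgeR adjusted p = 0.00015), and RRP12, a processing factor of the nucleolus, had 81.3 and 85.8 CPM at the high dose, against 68 and 67.4 CPM at the low dose (0.30 ± 0.05). These 2 kept the call whichever library was left out. The other 8 lost it in at least 1 such fit, and 4 to 5 of the 18 were called in any one of them. No gene was called among 24 cytosolic ribosomal proteins (median 0.04), 22 nuclear subunits of complex I (median 0.03) or 13 mitochondrial mRNAs (median -0.08), all by edgeR's quasi-likelihood test.

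**Figure D3:**
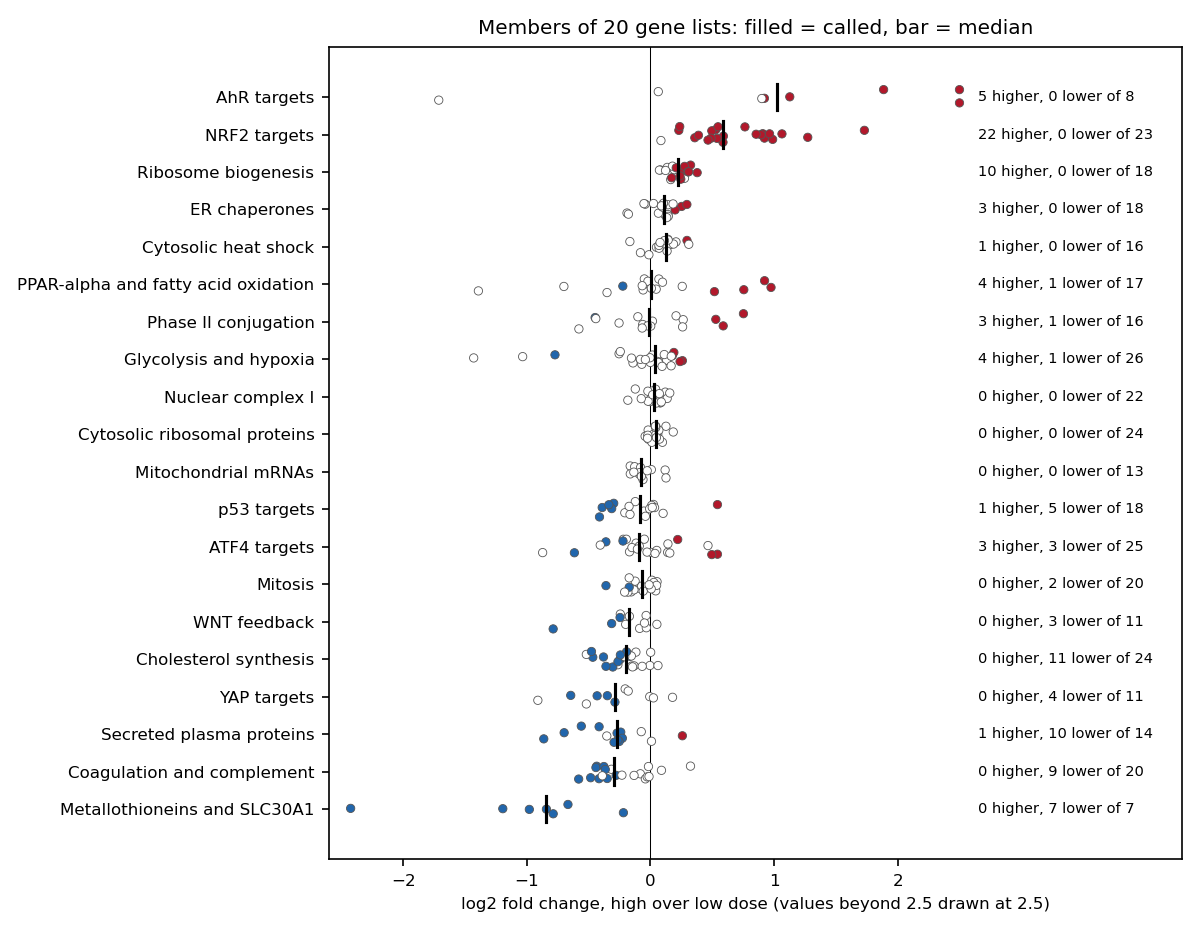
Log2 fold change of the high over the low dose (horizontal axis; values beyond 2.5 drawn at 2.5) for the tested members of 20 gene lists (rows), 1 point per gene, with red points called higher, blue points called lower, open points not called and a black bar at each list's median. NRF2 targets lie to the right with 22 of 23 called, and metallothioneins with SLC30A1 lie to the left with 7 of 7 called.

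Metallothioneins, the small cysteine-rich proteins that hold zinc and copper, led the falls. The 6 members tested and SLC30A1, the zinc exporter that answers to the same metal sensor, were all called lower, 7 of 7, beside 3.31% of all genes called lower, with a median of -0.84 on the log2 scale. MT1F (chr16:56657694-56660698, plus strand) had 57.6, 52.8 and 58.5 CPM with vehicle, 73.2 and 68.1 CPM at 20 µg/mL, 59.7 and 55 CPM at 100 µg/mL and 30.1 and 31.6 CPM at 500 µg/mL. The high dose stood 2.29-fold below the low dose (-1.19 ± 0.12 as log2 fold change, edgeR adjusted p = 3.7e-10), and the medium dose lay between them. MT2A, the most abundant member, had 361 and 368 CPM at the high dose, against 614 and 544 CPM at the low dose (-0.67 ± 0.12), and MT1E had 154 and 166 CPM at the high dose, against 301 and 274 CPM at the low dose (-0.84 ± 0.13).

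The order of doses against vehicle differed within the family. MT1G had 88.6, 87.9 and 115 CPM with vehicle, 189.9 and 175 CPM at 20 µg/mL, 163 and 145 CPM at 100 µg/mL and 91.7 and 93.1 CPM at 500 µg/mL, so the low dose lay above vehicle and the high dose close to it. MT1M, at 0.407 and 0.557 CPM at the high dose and 2.39 and 2.84 CPM at the low dose, had the largest log2 fold change of the family (-2.43 ± 0.32) at a very low level. Of the 7 genes, 3 were called higher at the low dose than with vehicle, beside 1.2% of all genes, and 5 lower at the high dose than with vehicle, beside 7.84%. SLC30A1 had 101 and 104 CPM at the high dose, against 122 and 117 CPM at the low dose (-0.22 ± 0.05) and lost its call on dropping replicate 1 of either dose (adjusted p up to 0.079). MT1H was too low to be tested, and the family's genes are near-copies of each other on chromosome 16, so the split of estimated counts among them is uncertain.

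Of the other large falls, SLC6A12, the carrier of the osmolyte betaine, had 3.54 and 4.06 CPM at the high dose, against 8.62 and 7.87 CPM at the low dose (-1.12 ± 0.13 as log2 fold change, edgeR adjusted p = 8.7e-09). MMP11, a secreted metalloproteinase, had 4.84 and 4.85 CPM at the high dose, against 10.2 and 10.6 CPM at the low dose, with replicates that agreed to within 0.5 CPM (-1.10 ± 0.13). KNG1, the precursor of bradykinin, had 3.17 and 4.14 CPM at the high dose, against 7.37 and 7.27 CPM at the low dose (edgeR adjusted p = 4.7e-06). SCN1A, a sodium channel subunit, had 14.5 and 14 CPM at the high dose, against 28 and 28.1 CPM at the low dose (-0.98 ± 0.14). ARSI, a sulfatase, and PLPPR1, a lipid phosphatase-related membrane protein, were lower by -0.93 and -0.90 as log2 fold changes. TNS1 (-0.95) and CHST15 (-0.88) completed the 10, but TNS1 lost its call without replicate 1 of either dose (adjusted p up to 0.098), and CHST15 did so in all fits but the one without low-dose replicate 1 (up to 0.22).

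Many messages for proteins that hepatocytes secrete into plasma were lower. Of 14 carriers and plasma proteins tested, 10 were lower and 1 higher, beside 3.31% and 3.98% of all genes, with a median of -0.27 on the log2 scale. Levels are shares of the counts of bulk RNA from a single cell line. Whether all cells or only part of them shared in these falls was not tested. SERPINA7, thyroxine-binding globulin (chrX:106032442-106038738, minus strand), had 139.6, 137 and 139 CPM with vehicle, 134 and 136 CPM at 20 µg/mL, 117 and 113 CPM at 100 µg/mL and 75.3 and 73 CPM at 500 µg/mL. The values were lower at each higher dose, but the medium dose was not called against the low one (adjusted p = 0.093). Its high-over-low log2 fold change was -0.86 ± 0.05 (edgeR adjusted p = 2.5e-17). TTR, transthyretin, another thyroxine carrier, had 36 and 34.6 CPM at the high dose, against 54.6 and 49.4 CPM at the low dose (-0.56 ± 0.11), and HPX, the heme carrier hemopexin, had 7.53 and 9.07 CPM at the high dose, against 12.2 and 14.7 CPM at the low dose (-0.70 ± 0.11).

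The most abundant plasma messages fell less. AFP, the fetal counterpart of albumin, had 3517 and 3504 CPM at the high dose, against 4243 and 4222 CPM at the low dose (-0.27 ± 0.05 on the log2 scale), and SERPINA1, alpha-1 antitrypsin, had 4462 and 4588 CPM at the high dose, against 5258 and 5523 CPM at the low dose (-0.25 ± 0.05). ALB, albumin, had 10577, 10773 and 11071 CPM with vehicle, 10491 and 10677 CPM at 20 µg/mL, 10258 and 10295 CPM at 100 µg/mL and 8862 and 9224 CPM at 500 µg/mL. Its fall of -0.23 ± 0.05 (edgeR adjusted p = 0.0041) was no longer called when replicate 1 of the high dose or replicate 2 of the low dose was dropped (up to 0.11). The single higher member, AMBP, at 914 and 949.8 CPM at the high dose and 755 and 803 CPM at the low dose, lost its call in all 4 fits that left out a library (up to 0.29). Those fits called 7 to 9 of the 14 lower and none higher.

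Clotting and complement factors, also products of the hepatocyte, fell in 9 of 20 cases (7 to 9 with 1 library left out) and rose in none, beside 3.31% of all genes called lower, with a median of -0.30. The 3 fibrinogen chains, whose genes neighbour each other on chromosome 4, moved in parallel. FGB, the beta chain, had 183 and 182 CPM at the high dose, against 254 and 255 CPM at the low dose (-0.48 ± 0.05 as log2 fold change, edgeR adjusted p = 8.2e-09), FGA had 717 and 716 CPM at the high dose, against 984 and 961 CPM at the low dose (-0.44 ± 0.06), and FGG had 775 and 772 CPM at the high dose, against 1016 and 993 CPM at the low dose (-0.38 ± 0.07). CFB, factor B of the alternative complement pathway, had 81.7 and 88.2 CPM at the high dose, against 109.8 and 117 CPM at the low dose (-0.42 ± 0.05), and C8A, a subunit of the membrane attack complex, was lower by -0.58 as a log2 fold change. SERPINC1, antithrombin, was not called, with an estimate of -0.01. The transcription factors of liver identity gave 3 lower and 1 higher of 15, and each of those 4 calls was lost on leaving out at least 2 of the 4 libraries in turn.

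Of 24 cholesterol synthesis genes, 11 were lower at the high dose and none higher, beside 3.31% of all genes called lower, with a median of -0.20. HMGCS1, which makes the precursor of mevalonate (chr5:43289395-43313512, minus strand), had 359 and 343 CPM at the high dose, against 490.2 and 479.8 CPM at the low dose (-0.47 ± 0.06 as log2 fold change, edgeR adjusted p = 9.4e-08). SQLE, which commits squalene to sterols, had 311 and 311 CPM at the high dose, against 376 and 369.9 CPM at the low dose (-0.26 ± 0.05).

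With 1 library left out, 5 to 7 of the 24 cholesterol genes were called, and without the Bupleuri library 18. In the medium-dose libraries none of the 24 was called against the low dose, with a median of -0.02. Of 13 genes of fatty acid synthesis, 2 were lower: ACSS2, which makes acetyl-CoA from acetate, had 93.7 and 95.4 CPM at the high dose, against 122 and 126 CPM at the low dose (-0.39 ± 0.05 on the log2 scale), and FADS2, a desaturase, had 199 and 208 CPM at the high dose, against 241 and 252 CPM at the low dose (-0.28 ± 0.05). Their 11 other list members were not called, beside 3.31% of all genes called lower, and the list's median was 0.00.

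Genes of some signalling pathways were also lower. Among 11 YAP targets 4 were lower and none higher, beside 3.31% of all genes called lower, and the same number was called in every fit that left out a library. CCN2, a matricellular growth factor, had 172, 175 and 169 CPM with vehicle, 173 and 175 CPM at 20 µg/mL, 152 and 151 CPM at 100 µg/mL and 108 and 115 CPM at 500 µg/mL (-0.64 ± 0.06 for high over low on the log2 scale). AMOTL2, ANKRD1 and AJUBA were lower by -0.43, -0.35 and -0.29. Of 11 WNT feedback genes 3 were lower, and 1 to 2 with a library left out. DKK1, a secreted WNT inhibitor among them, had 63.6 and 67.5 CPM at the high dose, against 115 and 112 CPM at the low dose (-0.79 ± 0.08), with 116 and 116 CPM at the medium dose, so that its fall lay between 100 and 500 µg/mL. Of 9 glucocorticoid receptor targets 2 were lower and 1, TAT, higher, and the call of TAT was lost on leaving out any 1 library (adjusted p 0.073 to 0.21). SGK1, a kinase on that list, had 30 and 30.3 CPM at the high dose, against 50.8 and 49.9 CPM at the low dose (-0.74 ± 0.06).

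In the stress lists, members moved both ways. GDF15, a stress hormone counted under ATF4 and p53, had 203 and 227 CPM at the high dose, against 144 and 152 CPM at the low dose (0.54 ± 0.10 on the log2 scale), whereas DDIT4, an mTOR inhibitor, had 30.8 and 30 CPM at the high dose, against 45.7 and 47.5 CPM at the low dose (-0.61 ± 0.14) and 31.3 and 30.6 CPM at the medium dose, close to the high one. The ATF4 list gave 3 higher and 3 lower of 25, beside 3.98% and 3.31% of all genes, but 2 higher and 1 lower whichever library was left out. The p53 list gave 1 higher and 5 lower of 18, and 1 higher and 1 to 3 lower with a library left out. CDKN1A, the p53-induced cell cycle inhibitor p21, had 78.8 and 88.1 CPM at the high dose and 83.7 and 82 CPM at the low dose (0.01 ± 0.06, edgeR adjusted p = 0.97). DDIT3, the stress factor CHOP, had 12.7 and 14.4 CPM at the high dose and 13 and 13.2 CPM at the low dose (0.05 ± 0.14, adjusted p = 0.91). Neither was called at any dose of Yijung-tang against another. Against vehicle, from another title set, CDKN1A was called lower at the low (-0.20 ± 0.05, adjusted p = 0.037), medium (-0.23 ± 0.05, 0.0045) and high dose (-0.19 ± 0.05, 0.0088), and DDIT3 at none of them by edgeR. For the high against the low dose, at these SEs a change of 1.5-fold would lie more than 3 SE from zero.

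Calls among proliferation genes are given beside 3.31% of all genes called lower and 3.98% called higher. They are too few to be read as a result about proliferation. NUSAP1, a spindle protein, had 59.9 and 58.5 CPM at the high dose, against 74.7 and 77.3 CPM at the low dose (-0.36 ± 0.05 on the log2 scale), 1 of 2 lower genes among 20 of mitosis, and 1 of 20 replication genes, CDC6, was called higher (0.17), a call lost on leaving out any 1 of the 4 libraries (up to 0.17). Other called genes were IL6R, the interleukin-6 receptor, at 48.8 and 46.4 CPM at the high dose and 30.9 and 29 CPM at the low dose (0.67 ± 0.06), and GLA, lysosomal alpha-galactosidase, at 40.5 and 40.4 CPM at the high dose and 24.2 and 25.5 CPM at the low dose (0.70 ± 0.08). FECH, which inserts iron into heme, had 43.9 and 40.8 CPM at the high dose, against 33.8 and 27.6 CPM at the low dose (0.46 ± 0.07).

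Marker lists of cell types other than hepatocytes moved in part. The summed stellate and fibroblast markers were 38.1 to 40.7 CPM at the high dose and 53.6 to 56.6 CPM at the low dose, mostly ACTA2 (-0.47 ± 0.07 on the log2 scale), with 5 of the 7 under 1 CPM. The summed white blood cell markers were 50.8 to 54.9 CPM at the high dose and 32.0 to 36.0 CPM at the low dose, nearly all of it CD68, a lysosomal glycoprotein (0.64 ± 0.11), with 4 of the 7 at 0. Bile duct markers summed to 463 to 477 CPM at the high dose and 519 to 525 CPM at the low dose. Their part in the falls and rises above was not tested.

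Against the vehicle libraries the high dose gave 2890 called genes (17.3%; 1583 higher and 1307 lower), the medium dose 1042 (6.25%) and the low dose 281 (1.69%). All 23 NRF2 genes were higher at the high dose than with vehicle, beside 9.49% of all genes called higher, and none was called at the low dose. At the medium dose 5 of the 23 were called higher than with vehicle and 1 lower, beside 600 and 442 of all 16675 genes. The vehicle libraries come from another title set and follow GC content differently, as given above, so what the extract did and what the title set did cannot be told apart in these counts. The vehicle libraries are shared by these 3 comparisons, and the high-dose libraries by the first of them and the comparison with the low dose.

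The change between 500 and 20 µg/mL was then set beside that of the 3 single-herb extracts, each with both of its doses in 1 title set, which Cimicifugae and Citri share. Yijung-tang had 1215 called genes (7.29%), Cimicifugae Rhizoma 1191 (7.14%), Citri Unshius Pericarpium 130 (0.78%) and Aconiti Lateralis Radix Preparata 2435 (14.6%). The test of the difference between the dose effects, as an interaction in the same fit, called 78 genes against Cimicifugae (0.468%; 20 above and 58 below), 149 against Citri (0.894%; 93 above and 56 below) and 1402 against Aconiti (8.41%; 775 above and 627 below). Yijung-tang has 2 libraries per dose and the others 3, and title set and extract cannot be told apart in these differences.

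CYP1A1 rose with dose in all 4 extracts, by 4.15 ± 0.15 on the log2 scale for Yijung-tang, 3.65 ± 0.12 for Cimicifugae, 3.49 ± 0.13 for Citri and 2.66 ± 0.12 for Aconiti. The difference was called against Aconiti (1.48 ± 0.19, adjusted p by edgeR = 7.5e-07), and not against Cimicifugae (0.50 ± 0.19, 0.35) or Citri (0.66 ± 0.19, 0.12). HMOX1 separated the formula from 2 of the herbs. Its change was 0.23 ± 0.07 for Yijung-tang, 1.42 ± 0.05 for Cimicifugae, 0.02 ± 0.05 for Citri and 0.95 ± 0.05 for Aconiti. The differences from Cimicifugae (-1.19 ± 0.08, edgeR adjusted p = 1.2e-13) and Aconiti (-0.72 ± 0.08, 4.5e-08) stayed called whichever of the 10 libraries involved was left out.

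CDKN1A stood at 0.01 ± 0.06 for Yijung-tang and 0.55 ± 0.05 for Aconiti, a called difference of -0.54 ± 0.07 in log2 units (edgeR adjusted p = 1.8e-06). ALB differed from Aconiti by -0.31 ± 0.07 (adjusted p = 0.0024), being lower with dose for Yijung-tang and not for Aconiti (0.08 ± 0.04). DDIT3 gave no called difference, its nearest being 0.36 ± 0.17 against Aconiti (adjusted p = 0.22). Against Citri none of CYP1A1, HMOX1, DDIT3, CDKN1A and ALB was called.

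**Figure D4:**
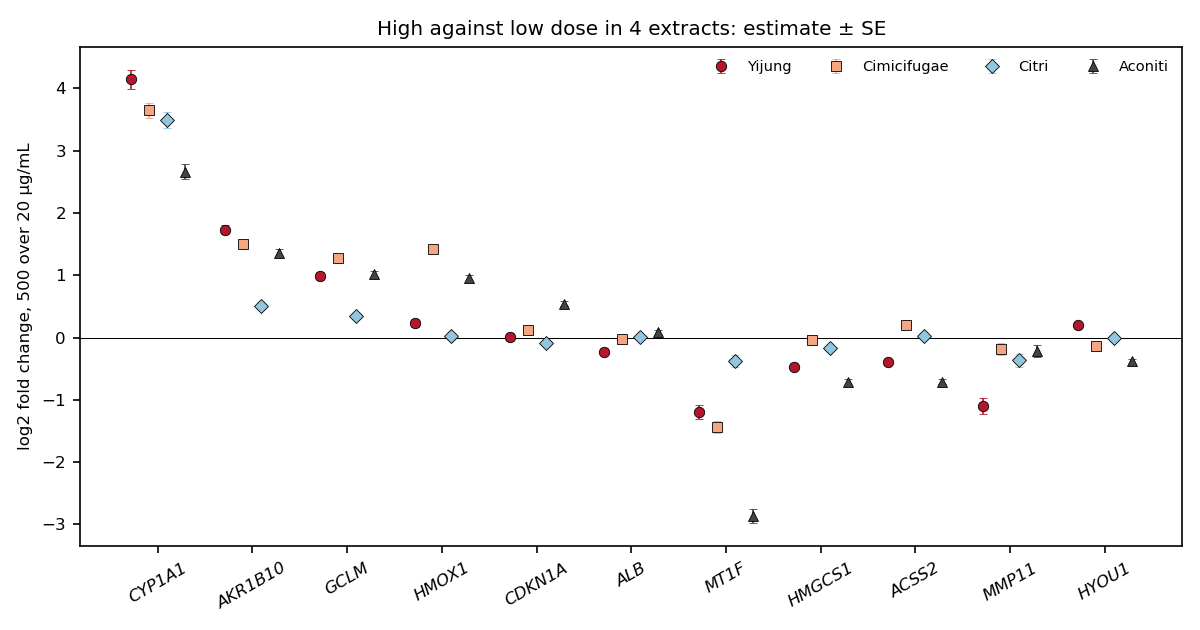
Log2 fold change of 500 over 20 µg/mL (vertical axis) with its SE (bars) for 11 genes (horizontal axis) in Yijung-tang (2 libraries per dose) and 3 single-herb extracts (3 libraries per dose). Yijung-tang lies near Cimicifugae for AKR1B10 and MT1F, far below it for HMOX1, and below it for HMGCS1 and ACSS2.

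Counts over gene lists in these differences were added after the panel genes had been examined. The NRF2 list had a median log2 fold change of 0.59 for Yijung-tang and also 0.59 for Cimicifugae, with HMOX1 the 1 member of 23 called different between them. It had a median of 0.17 for Citri, with 9 of 23 higher (0.252% of all genes), and 16 of 23 members were called higher for Yijung-tang than for Citri (0.558%). AKR1B10 was 1 of these, at 1.73 ± 0.07 for Yijung-tang and 0.51 ± 0.06 for Citri.

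Cholesterol genes differed between Yijung-tang and Cimicifugae, with 7 of 24 called below it (0.348% of all genes) and none above. HMGCS1 changed by -0.47 ± 0.06 for Yijung-tang and -0.04 ± 0.05 for Cimicifugae, a difference of -0.43 ± 0.07 in log2 units (edgeR adjusted p = 0.0011). ACSS2 of the fatty acid synthesis list changed by -0.39 ± 0.05 for Yijung-tang and 0.20 ± 0.04 for Cimicifugae. Against Aconiti the sign turned, with 13 of the 24 above it (4.65% of all genes) and 22 of them lower with dose in Aconiti itself (7.83%). The metallothionein list was likewise lower in the Aconiti extract, with a median of -2.47 there, and all 7 of its genes were called above Aconiti for Yijung-tang. Of the p53 list 14 of 18 members were called below Aconiti (3.76% of all genes).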

How the data were processed

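HepG2 cells were exposed for 24 h and profiled by directional mRNA sequencing. Per the submitters' processing notes, reads passed FastQC 0.11.9 and Trim Galore 0.6.5, were aligned with STAR 2.7.3a to GRCh38 and were quantified with RSEM 1.3.3. Which annotation release they used is not stated in the sources at hand. The deposited table holds the authors' RSEM output, an expected count (estimated count) per gene with no normalisation, for 60675 genes. Of these values 8.75% were not whole, and all were rounded to whole numbers. Of its 267 columns, 207 were not used, being mapped to no sample here. RSEM divides reads among near-identical genes, so paralog values are uncertain.

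Genes were kept by filterByExpr over the 22 groups with at least 2 libraries (57 libraries, 16675 genes), scaled by TMM and fitted with edgeR 4.0.16 (R 4.3.3) by the robust quasi-likelihood method with 1 coefficient per group and 35 residual degrees of freedom. All groups share the estimate of spread, because each Yijung-tang dose has 2 libraries. SE is the log2 fold change divided by the root of F. Each comparison was adjusted over all genes tested, so no list has a test of its own. Replicate libraries of a dose differed by more than counting noise, with a chi-square per degree of freedom of 2.62 to 4.03. Counts of 16675 genes were simulated for high against low dose, with 200 changed genes, all averaging 5 CPM or more, and no other difference between groups. Of these changes, 58.2% of 1.3-fold, 91.0% of 1.5-fold and 98.5% of 2-fold ones were recovered, and 5.17% of calls were false. Recovery in genes under 5 CPM was not simulated.

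Named genes are the called genes with the 10 highest and the 10 lowest log2 fold changes, limited to those averaging 5 CPM or more in either group and with no overlap of libraries, then up to 3 called members of each of 39 gene lists, and CYP1A1, HMOX1, DDIT3, CDKN1A and ALB, with further members of named families as values. Some genes that enter the counts are not reported here by name. The members and lists were chosen with earlier results of these data known, and so support nothing by themselves. Alternatives were DESeq2 1.42.0, RLE scaling, no filter, a replicate block, other sets of libraries, another prior count and offsets for GC content and length, the last added after seeing the data. Intervals on counts are exact and cover counting error only. Gene positions are from an annotation of GRCh38 and promoters from RefSeq on GRCh38.p14.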

Additional observations from a re-analysis of the deposited data

Results flagged for a closer look

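The results here had a change between high and low dose of Yijung-tang that differed from that of another extract. The interaction test itself called each of them (edgeR adjusted p under 0.05). They were looked for among the panel genes against each extract, and among other named genes against Cimicifugae only. The 149 genes called against Citri, and the other genes among the 1402 called against Aconiti, are not listed for those extracts. Values are Yijung-tang minus the other extract on the log2 scale. Their causes were not tested, and title set and extract cannot be told apart.

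Against Aconiti Lateralis Radix Preparata, CYP1A1 was above by 1.48, and HMOX1 (-0.72), CDKN1A (-0.54) and ALB (-0.31) were below. All 4 stayed called whichever of the 10 libraries was left out.

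Against Cimicifugae Rhizoma, HMOX1 was below by -1.19. MMP11 (-0.92), ACSS2 (-0.59) and HMGCS1 (-0.43) were also below, and these 4 stayed called in each of the 10 fits that left out a library. PLPPR1 (-0.67) lost its call without replicate 1 of either Yijung-tang dose (adjusted p up to 0.126), and BNIP3L (-0.69) without replicate 1 of the high or replicate 2 of the low dose (up to 0.156). FADS2 (-0.29) lost its call in 4 of 10 fits, those without replicate 1 of the high or replicate 2 of the low Yijung-tang dose, or without replicate 1 of the low or replicate 3 of the high Cimicifugae dose (up to 0.204). TP53INP1 (-0.47, up to 0.213) and FGB (-0.29, up to 0.209) lost theirs in 8 of 10, each time including every fit without a Yijung-tang library. Above Cimicifugae stood HYOU1 (0.34), whose call was lost without any 1 of the 4 Yijung-tang libraries (up to 0.0712), and CDC6 (0.26), whose call was lost in 8 of 10 fits (up to 0.219).

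Against Citri Unshius Pericarpium no gene of the panel of CYP1A1, HMOX1, DDIT3, CDKN1A and ALB was called different. Apart from the fit without the Bupleuri low-dose library, groups of 2 or 3 libraries were not examined for single outlying libraries.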

How the results depend on the processing

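The count for high against low dose was 1215. It was 1182 with RLE scaling (612 higher and 570 lower), 986 without the filter on low counts, 1230 with DESeq2 and 1253 with a replicate block (1189 shared with the 1215), and it ranged from 586 to 670 over fits that left out 1 library. With only the 6 Yijung-tang libraries in the fit it was 2682, with 261 list members called in place of 158. Without the Bupleuri library that stands apart, all 1215 were kept among 2023. Offsets for GC content and length, an alternative added once the data had been seen, gave 2011 (985 higher and 1026 lower), of which 1155 were shared. The causes of these moves were not tested. The replicate numbers were not used as pairs in the main fit. Over 10635 genes, deviations of same-numbered libraries correlated weakly, at 0.17 for high with low, -0.04 for high with medium and -0.07 for medium with low. Whether same-numbered libraries share an effect was not tested beyond this, and the replicate block allows for one. The block gave 2 calls for medium against low and 666 for high against medium, and IER2, the lower immediate early gene, was not called (adjusted p = 0.052).

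For medium against low, 3 calls became 93 without the filter, 96 with only Yijung-tang libraries, 27 without the Bupleuri library, 25 with offsets, 10 with DESeq2 and 1 to 3 over leave-one-out fits. For high against medium (650), the values were 1593 with only Yijung-tang libraries, 1113 without the Bupleuri library, 1182 with offsets and 282 to 320 over leave-one-out fits. Against vehicle, leave-one-out gave 1396 to 2401 for the high dose, 284 to 697 for the medium and 27 to 188 for the low. Offsets for GC content and length gave 3443 calls for the high dose, of which 2256 were shared with the 2890 of the main fit. For the medium dose they gave 1103 (571 shared with the 1042), and for the low dose 339 (150 shared with the 281). Without the Bupleuri library the medium dose gave 2112 and the low dose 811, and without the filter the low dose gave 538. Differences from Cimicifugae, Citri and Aconiti were 244, 302 and 2507 without the Bupleuri library, 293, 294 and 2322 with offsets, and 16 to 61, 72 to 137 and 833 to 1244 over leave-one-out fits. Without the filter they were 144 for Cimicifugae and 226 for Citri, and DESeq2 gave 153 for Cimicifugae. List members called ranged from 100 to 106 over leave-one-out fits.

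Of the 103 genes that the naming rule picked, CDKN1A reversed to -0.027 with offsets and DDIT3 to -0.041 without high-dose replicate 2. Over leave-one-out fits CDKN1A ranged from -0.073 to 0.091 and DDIT3 from -0.041 to 0.14, and neither was called. Of 412 values for named genes over leave-one-out fits, 124 kept their direction but lost the call. At this depth and with 2 libraries a dose, 58.2% of simulated 1.3-fold changes in genes averaging 5 CPM or more were recovered between high and low dose. Smaller changes can thus be missed, and genes of lower level were not simulated.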

Other observations

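Other lists held from 0 to 7 called genes each at the high against the low dose of Yijung-tang, beside 7.29% of all genes called. Of 26 genes of glycolysis and hypoxia, 4 were higher and 1 lower, among them GPI at 359 and 356 CPM at the high dose and 297 and 308 CPM at the low dose and ENO1 at 1633 and 1598 CPM at the high dose and 1402 and 1454 CPM at the low dose. These 5 calls were each lost in at least 1 fit that left out a library, GPI's without low-dose replicate 1 alone. Of 18 chaperones of the endoplasmic reticulum 3 were higher, and of 16 cytosolic heat shock genes 1, the cochaperone FKBP4 at 148 and 151 CPM at the high dose and 124 and 119.9 CPM at the low dose (0.30 ± 0.05 as log2 fold change, edgeR adjusted p = 0.0001). All 3 chaperone calls were lost in each of the 4 fits that left out a library. Of 16 genes of heme and iron handling 5 were higher (2 to 3 with a library left out), both ferritins of the NRF2 list among them, and 2 lower. Of 12 osmolyte and inositol genes 4 were higher and 2 lower, GPD1, which links glycolysis to glycerol, being at 48.5 and 49.7 CPM at the high dose and 32.4 and 37 CPM at the low dose (0.50 ± 0.07).

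Of 11 bile acid genes 3 were lower (1 to 2 with a library left out), with AKR1D1, a reductase of bile acid synthesis, at 8.95 and 8.91 CPM at the high dose and 12.6 and 15.8 CPM at the low dose (-0.67 ± 0.10 as log2 fold change). Of 15 apolipoprotein and lipoprotein assembly genes 2 were lower, with CIDEB, which helps lipidate very low density lipoprotein, at 42.2 and 44.8 CPM at the high dose and 54.8 and 56.6 CPM at the low dose (-0.36 ± 0.06). Counts of the other lists mostly shrank when a library was left out. Gluconeogenesis and FOXO targets gave 3 higher of 10, and 0 to 2 with a library left out. The lysosome gave 3 higher of 19, and 1 to 2 with a library left out. Acute phase genes gave 1 higher and 3 lower of 16, and 1 higher and 0 lower with a library left out. Clock genes gave 2 lower of 13, and 0 to 1 with a library left out. Immediate early genes gave 2 higher and 1 lower of 20, and 1 to 2 higher and 0 to 1 lower with a library left out. Autophagy gave 1 higher and 2 lower of 14, and 1 higher and 1 to 2 lower with a library left out. None of 3 endothelial markers tested was called, while 1 of 2 white blood cell markers was higher, 2 of 3 stellate markers lower and 1 of 3 bile duct markers lower, counts that became 1 to 2 and 0 to 1 for stellate and bile duct markers with a library left out.

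Some called genes rested on very few reads. UNC5B, a netrin receptor, was counted 3 times in the high-dose libraries and 22 times in the low-dose libraries, a ratio of 0.134 with an exact counting interval of 0.0257 to 0.447. KRT17, a keratin, was counted 19 times at the high dose and 3 times at the low dose, a ratio of 6.23 with an interval of 1.84 to 32.9. These genes were chosen after their values were seen, and the intervals cover counting error only.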
